A study of Mus musculus with 2 samples.

Results

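The 8 genes described here encode inhibitors and feedback regulators of the transcription factor NF-kB: the IkB proteins (Nfkbia, Nfkbib, Nfkbie, Nfkbiz and Bcl3) and the ubiquitin-editing enzyme A20 with a pair of its partners (Tnfaip3, Tnip1 and Tnip3). They were chosen by symbol, and each matched 1 row, so 8 of the 4898 gene rows of the table are theirs. The table came from 1 group of 2 poly(A) RNA-seq libraries of DC1940 cells, a wild-type C57BL/6 mouse line of CD8α+ dendritic cells, transduced with an empty vector and then exposed to pIC. The agent pIC is a synthetic double-stranded RNA that activates TLR3. The growth medium contained serum and antibiotics, the time of stimulation is not stated for these libraries, and the cells are a single line, so the values describe that line only. By the name of its sheet, the table lists genes that differ between unstimulated and pIC-stimulated empty-vector cells; the unstimulated values are not analysed here. The table holds 1 FPKM value per gene (fragments sequenced per length of transcript, adjusted for library size) for the stimulated cells, so the values below have no SD, and no difference between genes could be set against a spread between replicates. Sequencing depth is unknown.

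In resting cells, the cytoplasmic IkB proteins, here those of Nfkbia, Nfkbib and Nfkbie, bind NF-kB dimers and hold them in the cytoplasm. The products of Bcl3 and Nfkbiz act in the nucleus instead. A stimulus such as double-stranded RNA activates the IkB kinase, the cytoplasmic IkB proteins are phosphorylated, ubiquitinated and destroyed, and NF-kB enters the nucleus. Among the target genes of NF-kB are those of its own inhibitors, which ends the response. In dendritic cells the same pathway drives the genes of maturation, costimulation and cytokines.

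A stretch of genome before the transcript start was read for each gene, because a kB site there is the sequence that NF-kB itself binds. The promoters are those of RefSeq on GRCm38.p6, from 250 bases before the start to 50 bases after it, and 7 of the 8 genes matched; Nfkbiz did not. The search was for the kB consensus, a motif of 10 bases, on both strands, with overlapping matches joined. It was found in 6 of these 7 genes, against 9.55% of the 27018 genes with a promoter in the same RefSeq set. The genes were picked by name as regulators in NF-kB feedback, so this count describes them and does not test the motif. Bases that match are in capitals, and each sequence runs 5′ to 3′ on the strand of its gene. The first is the whole upstream stretch of Nfkbia, shown because this gene had the highest level. The second is the stretch of Tnfaip3 between its RefSeq start and an upstream exon of the same gene, shown because it alone held 2 matches. The other 4 are the surroundings of the matched bases, to set them side by side.
Nfkbia, chr12:55492648-55492897, minus strand: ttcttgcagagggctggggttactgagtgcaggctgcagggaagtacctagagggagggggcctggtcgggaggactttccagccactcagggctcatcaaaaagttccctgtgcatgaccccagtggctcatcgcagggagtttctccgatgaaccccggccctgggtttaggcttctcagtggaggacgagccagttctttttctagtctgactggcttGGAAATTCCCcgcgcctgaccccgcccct
Tnfaip3, chr10:19015411-19015547, minus strand: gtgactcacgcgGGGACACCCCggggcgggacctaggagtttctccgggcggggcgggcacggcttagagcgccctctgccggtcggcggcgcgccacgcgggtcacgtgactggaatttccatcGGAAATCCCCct
Tnip1, chr11:54962972-54963013, minus strand: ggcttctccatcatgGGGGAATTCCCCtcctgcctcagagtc
Tnip3, chr6:65590329-65590368, plus strand: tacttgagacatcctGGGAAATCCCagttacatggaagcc
Nfkbie, chr17:45555579-45555618, plus strand: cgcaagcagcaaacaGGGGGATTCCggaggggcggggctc
Bcl3, chr7:19822736-19822761, minus strand: ggcggcagGGGAAGTCCCgctgcccg

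All 8 inhibitor genes lay above the upper quartile of the table, which was 33.4 FPKM, and their median was 126 FPKM, against 9.68 FPKM over all 4898 rows. Ranked among rows of at least 1 FPKM only, 6 of the 8 did, and Nfkbiz and Tnip3 lay above 74.9% and 71.5% of those rows. At 100 FPKM or more stood 4 of the 8, Nfkbia, Tnip1, Nfkbib and Nfkbie, and of all rows 9.60% did. Together the 8 genes took 0.790% of the FPKM summed over the table, and Nfkbia alone took 0.498%. That all 8 have a row follows from the way they were chosen. Genes listed because pIC raised them would also have high pIC values through the listing, and other rows may be listed because pIC lowered them. The direction of change is not analysed here, so the places of the 8 among the rows are a description only. Of the 21900 protein-coding genes of RefSeq, 22.2% have one. In bulk RNA, more cells that express a gene and more RNA per cell cannot be told apart.

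**Figure D1:**
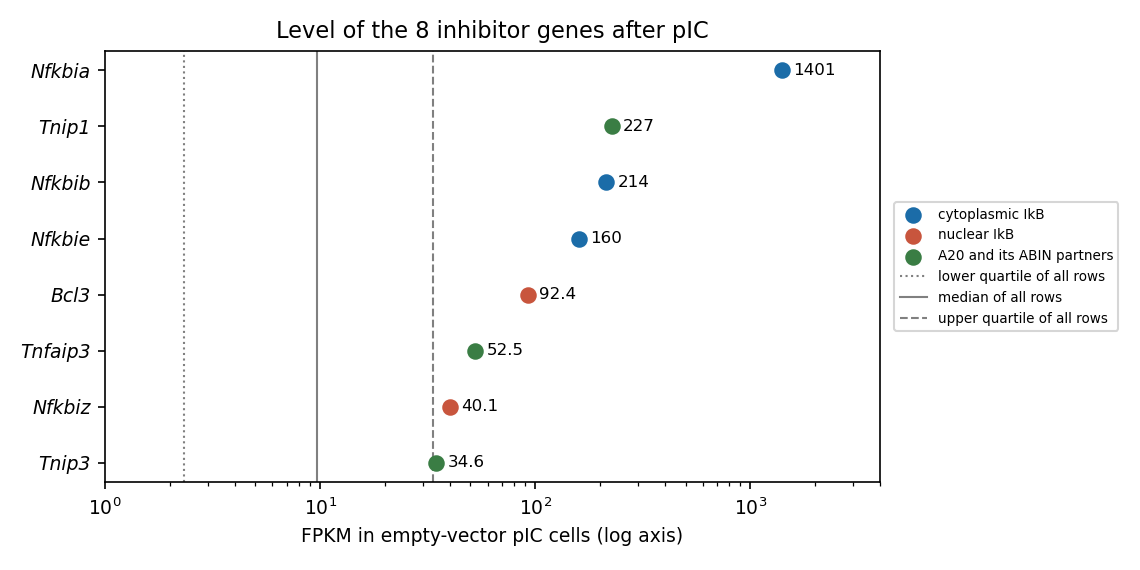
FPKM of each inhibitor gene in empty-vector pIC cells (log axis), 1 value per gene with no error bar; colours give the protein class and the vertical lines the quartiles and median of all 4898 rows. Nfkbia, at 1401 FPKM, stands apart from the other 7, which run from 34.6 to 227 FPKM.

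Of the IkB proteins that hold NF-kB in the cytoplasm, the 3 genes summed to 1775 FPKM, which was 79.9% of the FPKM of all 8. Nfkbia encodes IkBα, the inhibitor that is destroyed and made again fastest in the NF-kB response, and its level was 1401 FPKM, the highest of the 8 and the 18th of all rows from the top. Nfkbib encodes IkBβ, an inhibitor with slower turnover, and stood at 214 FPKM, above 95.8% of the rows. Nfkbie encodes IkBε, an inhibitor that acts later in the response, and stood at 160 FPKM, above 93.8% of the rows. Nfkbia was thus 6.55 times Nfkbib and 8.75 times Nfkbie in FPKM, while Nfkbib was 1.34 times Nfkbie. All 3 lay above 96.3 FPKM, the 90th percentile of the rows.

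The Nfkbia row lies on chromosome 12 from 55280814 to 55492647 (mm10) and spans 211834 bases, of which the RefSeq gene of 3239 bases (55489409 to 55492647) is 1.53%. In GENCODE M21 the interval also holds the protein-coding genes Ppp2r3c, 1110008L16Rik and Psma6, and 0 other rows of the table overlap it. The only accession of the row is that of Nfkbia, and its matched transcript is 1578 bases long. The part that reads of the overlapping genes have in the value of 1401 FPKM was not tested. The Nfkbib row (chromosome 7, 28756174 to 28766644) overlaps 1 other protein-coding gene, Ccer2, and the Nfkbie row (chromosome 17, 45555700 to 45563168) overlaps 0.

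The nuclear IkB genes were lower and summed to 132 FPKM, 5.96% of the FPKM of all 8. Bcl3, whose product binds p50 and p52 homodimers in the nucleus, had 92.4 FPKM, above 89.6% of the rows (chromosome 7, 19808462 to 19822755). Nfkbiz encodes IkBζ, a nuclear cofactor needed for a second set of NF-kB targets, and had 40.1 FPKM, above 78.5% of the rows (chromosome 16, 55811377 to 55838641). Bcl3 was 2.30 times Nfkbiz in FPKM. The Bcl3 interval also holds the antisense genes Gm16175 and Gm16174, and no source used here says whether strand was used in counting, so reads of Bcl3 and of these genes cannot be told apart.

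The A20 group summed to 314 FPKM, 14.1% of the FPKM of all 8, and its members lay far apart. Tnip1 encodes ABIN-1, a ubiquitin-binding partner of A20, and its 227 FPKM was the second highest of the 8, above 96.0% of the rows (chromosome 11, 54910787 to 54962940). Tnfaip3 encodes A20 itself, which edits ubiquitin chains on the signalling proteins upstream of the IkB kinase, and had 52.5 FPKM, above 82.5% of the rows (chromosome 10, 19000910 to 19015410). Tnip3 encodes ABIN-3, a further A20-binding protein, and its 34.6 FPKM was the lowest of the 8, above 75.5% of the rows (chromosome 6, 65590398 to 65634040). Tnip1 was 4.32 times Tnfaip3 and 6.56 times Tnip3 in FPKM. The gene of the enzyme was thus lower than that of one partner and higher than that of the other.

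From the top, the order of the levels was Nfkbia, Tnip1, Nfkbib, Nfkbie, Bcl3, Tnfaip3, Nfkbiz and Tnip3. The widest gap was the first, with Nfkbia 6.17 times Tnip1, and the narrowest the second, with Tnip1 1.06 times Nfkbib. Nfkbiz was 1.16 times Tnip3, Tnfaip3 1.31 times Nfkbiz, Nfkbie 1.73 times Bcl3 and Bcl3 1.76 times Tnfaip3. With 1 value per gene it cannot be said which of these neighbours differ beyond their spread between libraries. From end to end, Nfkbia was 40.5 times Tnip3. The accessions of each row belong to 1 gene, and they number 5 for Tnip1, 3 for Nfkbiz, 2 each for Nfkbib, Nfkbie and Tnfaip3, and 1 each for Nfkbia, Bcl3 and Tnip3, so the rows of 5 genes cover several annotated transcripts.

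The inhibitors were set beside other genes of the pathway, of which 28 of 43 had a row, against 22.2% of RefSeq protein-coding genes. The median of these 28 was 99.8 FPKM, and 14 stood at 100 FPKM or more, against 9.60% of all rows. Of these 14, 11 are other kB target genes, a list drawn up with earlier results of these data known, and 3 are NF-kB subunit genes. The lists of the IkB kinase, the ubiquitin ligase and the other A20 partners had 0 at that level. The 5 NF-kB subunits, which form the dimers that IkB proteins bind, had a median of 193 FPKM and summed to 948 FPKM. Relb stood at 299, Nfkb2 at 292, Nfkb1 at 193 and Rela, the main activating subunit, lowest at 68.7. Nfkbia was 20.4 times Rela in FPKM. Of the other IkB and IkB-like genes 3 of 4 had a row: Nfkb2 and Nfkb1, whose precursors have an IkB-like end, and Nfkbid, which encodes the nuclear protein IkBNS, at 11.3 FPKM.

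Other partners of A20 and deubiquitinases that act on the pathway had a row in 3 of 8 cases. These were Optn, a ubiquitin-binding adaptor, at 43.7 FPKM, Otulin, which removes linear ubiquitin chains, at 43.3 FPKM, and Otud7b, a deubiquitinase, at 11.4 FPKM. They lie in the range of Tnfaip3 and Tnip3 or below it. The IkB kinase and its activators had 6 of 11 genes with a row and a median of 38.8 FPKM, with Tlr3, a receptor for pIC, at 85.7, the kinase subunit gene Ikbkb at 60.8, the adaptor gene Tab2 at 59.7 and Tab3 lowest at 4.24. Of 5 genes of the ubiquitin ligase that marks IkB proteins, 1 had a row, Fbxw11 at 52.4 FPKM. The 12 other kB target genes, a list drawn up with earlier results of these data known, all had a row, with a median of 431 FPKM, from the cytokine gene Il6 at 54.3 to the chemokine genes Ccl22 at 7332 and Ccl5 at 12867, and with the survival gene Bcl2a1b at 1614, a value that is uncertain because of its near-identical copies. Nfkbia, Tnip1, Nfkbib, Nfkbie and Bcl3 lay within the range of these targets, and Tnfaip3, Nfkbiz and Tnip3 lay below it. Of the inhibitor genes, only Nfkbia lay above the median of the targets.

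**Figure D2:**
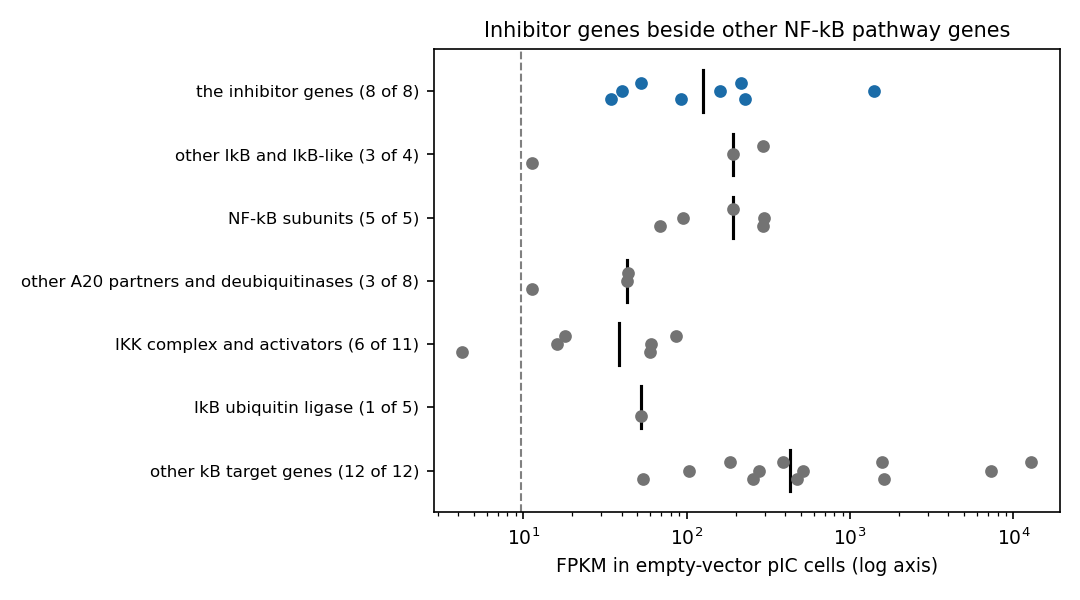
FPKM in empty-vector pIC cells (log axis) of the inhibitor genes and of 6 lists of other pathway genes; each point is 1 gene, short black lines are medians, the dashed line is the median of all rows (9.68 FPKM), and counts give genes with a row of genes in the list. The median of the inhibitor genes (126 FPKM) lies between those of the other kB targets (431 FPKM) and the IkB kinase list (38.8 FPKM). Single genes do not all lie between these medians, with Nfkbia at 1401 and Tnip3 at 34.6 FPKM. The lists were drawn up with earlier results of these data known.

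Markers of cell types were read from the same values. A marker has a row only if it was listed as differing after pIC, so counts of rows do not test which cells were present. Of 10 markers of CD8α+ dendritic cells, 7 had a row, with a median of 85.7 FPKM and a sum of 962 FPKM, among them Xcr1 at 387, Cd8a at 292, Clec9a at 57.0, Cd24a at 24.9 and Cadm1 lowest at 9.81. Markers of cDC2, the other conventional type, had a row in 1 of 4 cases (Itgam at 0.176 FPKM), macrophage and monocyte markers in 4 of 6 (sum 39.8 FPKM, Cd68 at 33.2), fibroblast and epithelial markers in 1 of 4 (Cdh1 at 0.772 FPKM) and lymphocyte markers in 0 of 4. Of 4 plasmacytoid dendritic cell markers 2 had a row, Tcf4 at 5.41 and Bst2, which interferon also raises in other cells, at 602 FPKM. Markers without a row are not analysed here, and the part of other cells in the inhibitor values was not tested.

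The starts behind the promoter sequences are the ends of the table's own intervals for all 7 genes. In Nfkbia the match begins 29 bases before the start, in Tnip3 54, in Tnip1 58 and in Nfkbie 106. In Tnfaip3 the matches begin 125 and 12 bases before the start, and in Bcl3 the match lies after it, from base 3 to base 12 of the transcript. That place depends on the start used, 19822755. The RefSeq gene of Bcl3 reaches further upstream, to 19822824, and 15 of the 250 upstream bases lie in GENCODE exons of Bcl3. The matched bases of Tnip1, GGGGAATTCCCC, are 12 long because matches on both strands overlap. In GENCODE M21, 110 of the 250 bases before the Tnfaip3 start lie in exons of Tnfaip3 itself, and both matches lie between that exon sequence and the start. RefSeq gives Tnfaip3 a further start within the gene, at 19011963, and the window of that start held no match. Nfkbib is the gene without a match, and 133 of its 250 upstream bases lie in exons of Sirt2, a neighbouring gene on the opposite strand.

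Matches were set beside levels. The highest of the 8 genes and the lowest, Nfkbia at 1401 and Tnip3 at 34.6 FPKM, each held 1, while Nfkbib at 214 FPKM held none. Among genes with a row, 12.5% of 3955 held the motif in the same window, with 17.3% of 369 at 100 FPKM or more and 12% of 3488 below. The other 98 stand only in rows shared by several genes and were left out of this split. In the pathway lists the motif was in Nfkb2 and Rel of 3 NF-kB subunits with a promoter, and in Nfkbid. It was in 1 of 5 genes of the IkB kinase list, Tlr3, in 0 of 2 of the other A20 partners and in 2 of 10 of the other kB targets, Il6 and Bcl2l1. With only the 250 bases before the start, the inhibitor genes with a match were 5 of 7, against 8.24% of all genes with a promoter, and Bcl3 was the one lost. A looser form, GGGNNNNNCC, was in 6 of the 7 genes, but also in 53.5% of all genes with a promoter and in 73.7% of genes with a row. A relaxed consensus, with a pair of G in place of 3 at its head, was in the same 6 genes, against 12.6% of all genes with a promoter. Both wider motifs take in every match of the consensus, so neither could be found in fewer than 6.

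Motifs of other factors that pIC activates were searched in the same windows, on both strands. The core of the interferon-stimulated response element, GAAANNGAAA, which interferon regulatory factors bind, was in 0 of the 7 inhibitor genes, against 3.99% of all genes with a promoter. Among genes with a row it was in 4.65%, with 12.7% at 100 FPKM or more and 3.81% below. The 7 genes stand on both sides of that level, so 0 of 7 is not read as a trait of these genes. The AP-1 site, TGANTCA, was in 2 of the 7, against 8.98% of all genes with a promoter. It begins 136 bases before the start of Tnfaip3, just ahead of the first kB match, and 156 bases before the start of Nfkbie. A match describes the letters of the reference sequence, and binding was not measured.

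**Figure D3:**
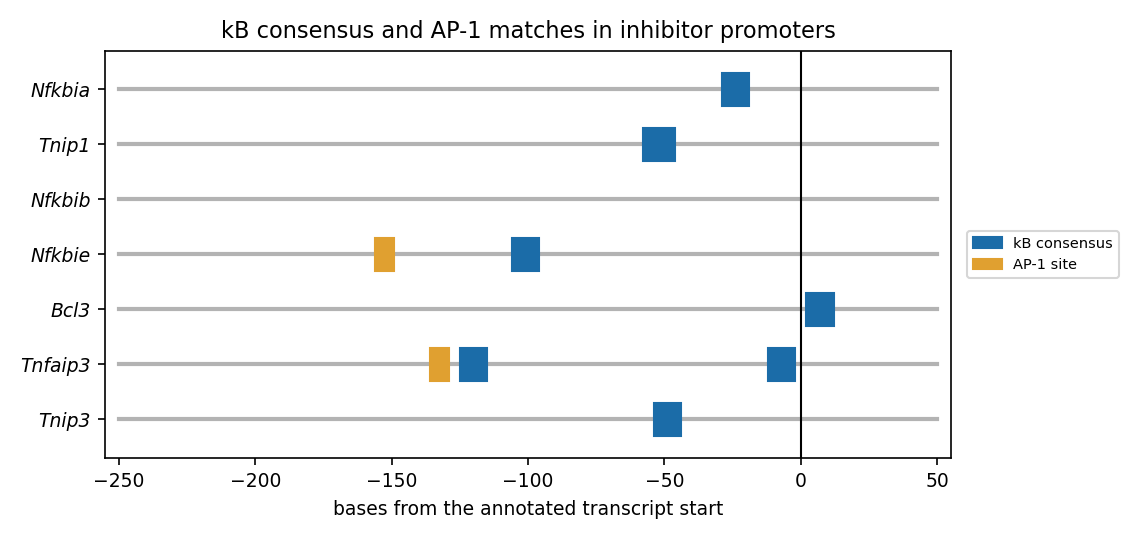
Matches to the kB consensus (blue) and the AP-1 site (orange) in the promoters of 7 inhibitor genes, in falling order of FPKM from the top; the horizontal axis is in bases from the annotated transcript start, marked by the vertical line, and box widths are to scale. Matches stand in 6 of the 7 promoters, and Nfkbib has none.

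The inhibitor transcripts were also read for the elements that shorten the life of cytokine mRNAs. AU-rich elements in the 3′ UTR, built on the pentamer ATTTA, are bound by proteins that destabilise the mRNA. In the longest annotated 3′ UTR of each gene (GENCODE M21), 4 of the 8 genes held the pentamer and 4 did not, against 65.2% of 21020 protein-coding genes that hold it. Most genes hold a pentamer, so 4 of 8 is not read as a trait of these genes. Whether any of these pentamers shortens the life of its mRNA was not tested. Nfkbia held 2 in 512 bases, Tnfaip3 5 in 1821, Nfkbiz 4 in 1355 and Tnip3 3 in 2932. Per kilobase that is 3.91 for Nfkbia, 2.75 for Tnfaip3, 2.95 for Nfkbiz and 1.02 for Tnip3, against a median of 1.24 over all genes. Tnip1, Nfkbib, Nfkbie and Bcl3 held 0 in 752, 763, 1102 and 410 bases.

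The longer element TTATTTATT was in Nfkbia and Tnfaip3, 2 of the 8, against 7.66% of all genes. Levels did not divide by the pentamer in 1 direction: Nfkbia is the highest of the 8 genes, and Tnfaip3, Nfkbiz and Tnip3 are the lowest 3. The 4 genes without it, Tnip1, Nfkbib, Nfkbie and Bcl3, fill the places between them, from 227 to 92.4 FPKM. With 1 time and 1 condition, no rate of decay could be read from these values.

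**Figure D4:**
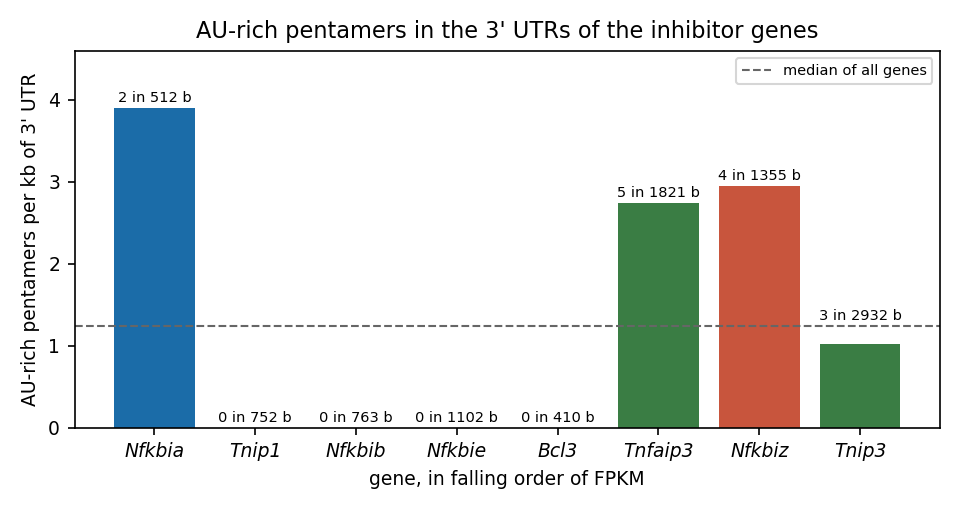
AU-rich pentamers per kilobase in the longest annotated 3′ UTR of each inhibitor gene, in falling order of FPKM from the left, with the count and the 3′ UTR length in bases (b) above each bar; colours give the protein class as in the plot of levels and the dashed line is the median of all genes (1.24). Nfkbia, Tnfaip3 and Nfkbiz lie above that median, Tnip3 lies below it, and the other 4 genes are at 0.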

How the data were processed

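Poly(A) RNA of 2 libraries of 1 group was sequenced. Per the labels and the submitters' processing notes, tools were FastQC 0.11.5, TopHat2 2.1.0 and Cufflinks 2.2.1 with mm10. The deposited values are FPKM computed by the authors, 1 per gene; no source used here says how both libraries were combined, or by which test and threshold genes were listed. Depth is unknown, so no interval is given. Of the table, 1 row was not used, and 5 symbols repeat an earlier one (the higher value was taken).

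Members and gene lists were chosen with earlier results of these data known. Genes named are the 8 members, up to 3 highest of each list and its lowest; markers quoted, genes of overlapping intervals and genes with a motif match were named after their values were seen. No test was run, since 1 value per gene allows none. Planned protein descriptions were not run. Starts had 1 added. RefSeq accessions were matched to GRCm38.p6 and transcripts to GENCODE M21. The kB consensus has 3 G, a purine, any pair of bases, a pair of pyrimidines and a pair of C. Motif scans were tested on simulated sequences. Python 3.11.15, pandas 2.3.3, numpy 2.4.6 and matplotlib 3.10.9 were used.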

Additional observations from a re-analysis of the deposited data

How the results depend on the processing

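The levels rest on 1 value per gene, so leaving out a library could not be run. No paired analysis was possible because each gene has a single value for the only group. All 8 genes stayed above the median row when ranked among protein-coding rows, rows of at least 1 FPKM, rows with accessions of 1 gene, or without the short RNA rows (chosen after seeing the data), and the share of rows below a gene shifted by -4.00 to 0.0407 percentage points. Above the upper quartile stood 8, but 6 among rows of at least 1 FPKM. The 4 genes at 100 FPKM or more became 6 at 50 FPKM and 3 at 200 FPKM. They became 8 at 100 after protein-coding rows were rescaled to a fixed total, which multiplies every value by 4.11. That step in effect lowers the level for every protein-coding row. The shares of all rows past these other levels were not computed, so the changed counts say nothing particular to the 8 genes. Multiplied by transcript length, 26 of 28 pairs of genes kept their order. The 2 that changed are Nfkbib with Nfkbie and Bcl3 with Tnfaip3. Genes with a kB match were 5 with only the 250 bases before the start and 6 with the looser form and the relaxed consensus. Those wider motifs take in every match of the consensus, so their count could not fall. The relaxed consensus was chosen after seeing the data. With no depth given, its limits were not measured.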

Other observations

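The order of the rows is a part of the table that no comparison used. Locus numbers increase without a break over 2406 rows (49.1%) from the top, and 362 such runs make up the table. Of the 8 inhibitor genes, 7 stand in that first run, from row 224 (Tnfaip3) to row 2002 (Nfkbib). Tnip3, the lowest in FPKM, stands at row 2912, in the eighth run, which has 51 rows. No source used here says what set the order, and its runs were noticed in the data before the 8 genes were placed in them.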
